A study of Mus musculus with 8 samples.

Results

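The liver of the pregnant mothers was compared between food restriction (FR) and free feeding on the 2 arrays whose titles name the maternal pool, of 8 arrays in the series. The study used C57BL/6J mice. Control dams ate chow freely, and FR dams received 50% of the amount that the control dams ate, from gestation day 10 to 17. Livers of 6 mothers per diet were collected on gestation day 18, in the late morning, a few hours after the lights came on. The other 6 arrays hold livers of the male fetuses of dams on the same diets, in pools of 6 or 3. No mutation, transgene or drug was used, all dams were of the same strain, and the age of the dams and the hour at which FR dams were fed are not given in the sources used here.

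The maternal samples are pools. RNA of the 6 mothers of a diet was combined into 1 pool, 1000 ng of pooled RNA was labelled with Cy3 or Cy5, and both pools were hybridised together on the long oligonucleotide probes of an Agilent mouse 44K array. The second array held the same pools with the dyes exchanged. The arrays are therefore technical repeats of a single pair of pools, the spread between mothers was not measured, and no test of FR against control was made. Each value is a log2 ratio, FR divided by control, given for the array with control in Cy3 first and for the array with control in Cy5 second. A gene was called higher or lower when its ratio passed 2-fold in the same direction on both arrays. Levels quoted for a single channel are log2 intensities. For them, the mean of both channels was scaled to a common distribution over the arrays of the slide, which leaves the ratios unchanged. Such levels do not compare genes with each other.

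As background, the liver of a late-pregnant rodent supplies glucose, lipids and plasma proteins to the dam and, through the placenta, to the litter. Hepatocytes keep a circadian clock whose outputs follow feeding time as well as light, and they answer a shortage of food through glucagon, glucocorticoids and falling insulin, by making glucose, breaking down amino acids and oxidising fat. Synthesis of fatty acids and cholesterol is driven by insulin and the sterol-sensing SREBP factors when food is plentiful.

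Sex and fetal marker genes were read to check the labels. Xist, which is expressed from the inactive X chromosome, had a mean level of 12.81 in the control mothers and 12.76 in the FR mothers, against 6.56 in the control fetal pool of 6. Y-linked Eif2s3y had 6.39 in the control mothers, where it was not above background on either array, and 11.11 in the control fetal pool. Afp, the fetal albumin-like protein, had 7.55 in the control mothers, 8.35 in the FR mothers and 16.31 in the control fetal pool. Albumin, the main hepatocyte product, had 16.47 in the control mothers and 16.47 in the FR mothers. The brightest probe for Y-linked Ddx3y, in contrast, had 7.81 in the control mothers and 8.84 in the control fetal pool, and it was above background on 1 maternal array.

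The array read 41174 probes, and 19505 genes had a probe above background in at least 1 diet on both maternal arrays. Of these, 203 were called higher with FR and 227 lower, which is 1.04% and 1.16% of the genes measured. The 1st percentile of the mean ratios was -1.20, the median 0.00 and the 99th percentile 1.17. The ratios of the 2 arrays correlated with r = 0.729 across genes, which are not independent replicates, and the median distance between a gene's ratios on the 2 arrays was 0.15. Only 13 genes passed 2-fold in opposite directions, and 9 of them were among the 976 brightest genes, where r was 0.461 and the median distance 0.32. The maternal signals were low, with medians of 69.1 and 69.7 in Cy3 and 122 and 135 in Cy5 over backgrounds of 46 to 50, which limits the precision for weak genes. Just inside the 2-fold limit were Tmem100 and Pde4b, with means of 1.03 and -1.12. Just outside, with only 1 array past it, were Klk1b4 and Pter, with means of -1.22 and -1.13.

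**Figure D1:**
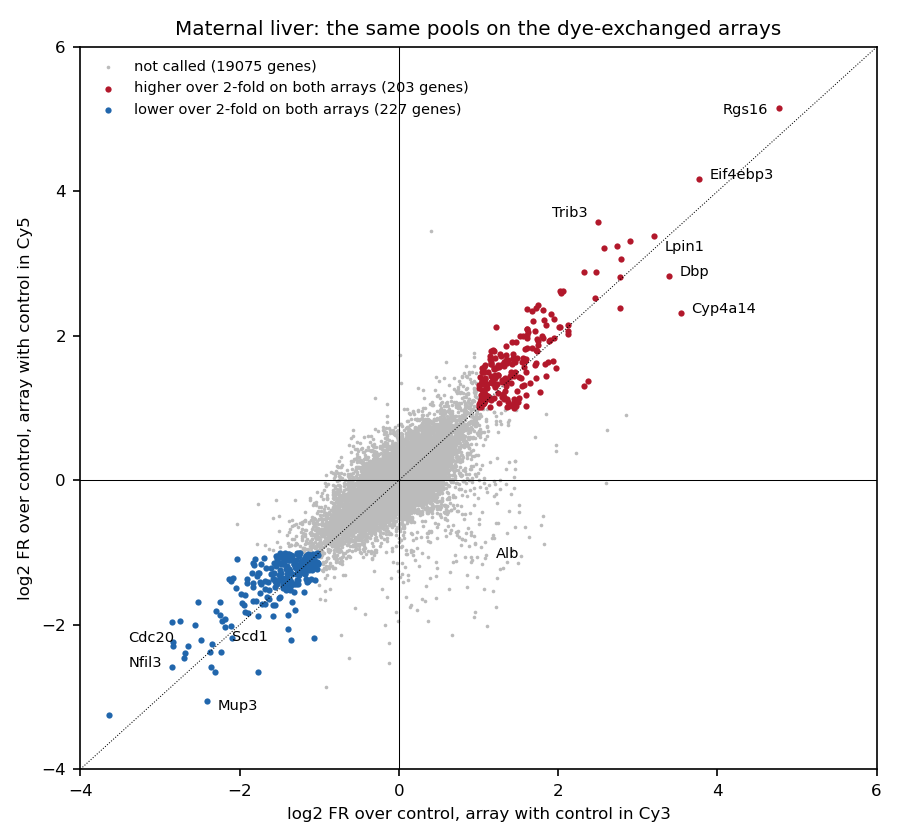
Log2 ratio of FR over control for 19505 genes on the maternal array with control in Cy3 (horizontal axis) and on the array with control in Cy5 (vertical axis). Red and blue points are the 203 and 227 genes past 2-fold in the same direction on both arrays, and the dotted line marks equal values. Most called genes lie near that line, while a spray of uncalled genes with values above 0 on the first array and below 0 on the second, among them Alb, lies at lower right.

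The counts depended on how the dyes were balanced. Centring each array on its median without loess, the curve that removes dye bias along the intensity scale, gave 67 higher and 61 lower genes, and the ratios of the arrays then correlated with r = -0.268. Under that setting 427 of the 430 called genes kept a mean of the 2 arrays past 2-fold in their direction, but only 120 passed it on each array. The Feature Extraction program flagged 11.8% and 12.8% of the maternal spots as non-uniform in Cy3, and these spots are included here. Without them 84.7% of the 976 brightest genes had no probe left, against 16.7% of all genes measured. The same held for 129 of the 430 called genes, and 264 of the 301 called genes that could still be read kept their call. Of the 430 called genes, 102 kept it under every one of 9 other settings in which they could be read.

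The highest ratio belonged to Rgs16, a regulator that shortens signalling by G-protein-coupled receptors and whose liver transcript is known to follow the clock. Its level was 9.64 and 9.95 in the control channels and 14.41 and 15.10 in the FR channels, the log2 ratios were 4.77 and 5.15, and the mean is a 31.2-fold higher level with FR. The single probe for Rgs16 lies at chr1:155592244-155592303 in the mm9 build. Next was Eif4ebp3, a member of the family of proteins that hold back cap-dependent translation. It read 10.91 and 11.06 in control and 14.68 and 15.23 with FR, a 15.7-fold difference. A second Eif4ebp3 probe gave a mean of 3.75 against 3.97 for the first.

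Lpin1, a phosphatidate phosphatase that also acts as a coactivator of fat oxidation genes, followed with 10.94 and 11.30 in control and 14.15 and 14.68 with FR, 9.82-fold higher. Its 4 probes spanned means from 3.30 to 4.10. The related phosphatase Lpin2 had ratios of 2.78 and 2.39, and its 5 probes ranged from 0.93 to 2.60. Mfsd2a, the transporter of lysophosphatidylcholine that carries the omega-3 fatty acid DHA, had 2.57 and 3.21, and Abca6, a lipid transporter of the ABC family, had 2.90 and 3.31 on its brightest probe but a mean of 0.32 on the other. Cyp4a14, the omega-hydroxylase of fatty acids, had 3.54 and 2.32, a wider gap between the arrays than most of this group, and its level in the control channels was 12.65 and 14.45.

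Trib3, a pseudokinase that dampens insulin signalling through Akt and is induced by amino acid shortage, had ratios of 2.50 and 3.58 on a probe with a mean of 3.04, while its other probe gave 1.02. Both RNA-binding proteins known to accumulate in the cold were among the highest 15: Cirbp had 2.78 and 2.81, with 10.34 and 10.49 in control and 13.12 and 13.30 with FR, and Rbm3 had 2.06 and 2.63. The second Rbm3 probe, which is dim, had a mean of -0.10. The remaining members of the highest 15 were the clock genes described below, the estrogen sulfotransferase Sult1e1 with 2.32 and 2.89, and the stress kinase Map2k6 with 2.46 and 2.53 and a second probe at 0.61.

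**Figure D2:**
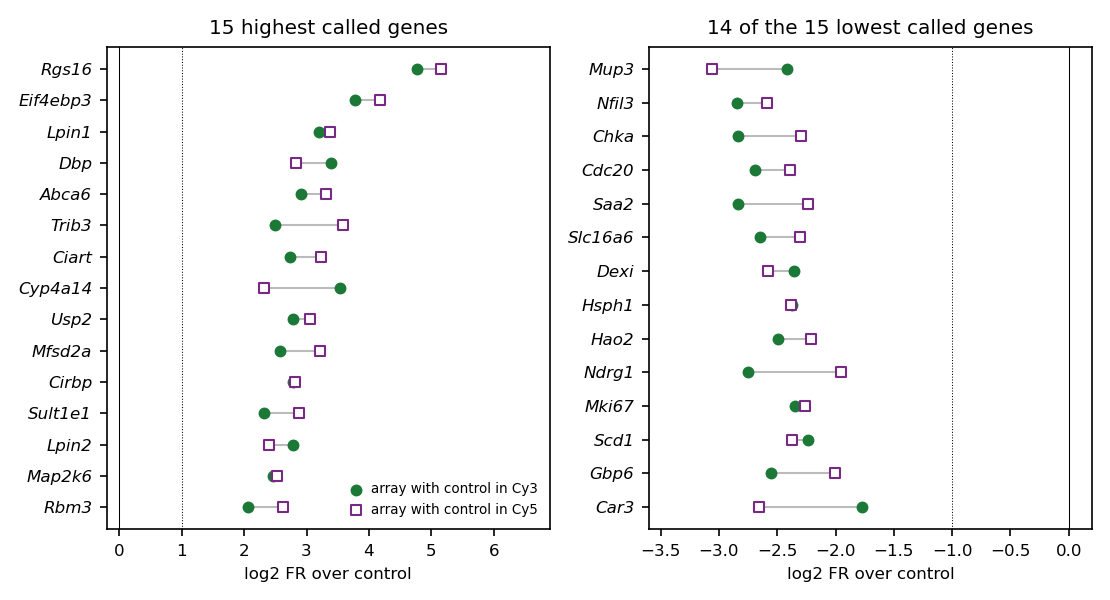
Log2 ratio of FR over control on each maternal array for the 15 called genes with the highest and for 14 of the 15 with the lowest mean, ordered by mean. Green circles are the array with control in Cy3 and purple squares the array with control in Cy5, and dotted lines mark 2-fold. On the left the values run from 2.06 for Rbm3 to 5.15 for Rgs16, and on the right from -3.06 for Mup3 to -1.78 for Car3.

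Among genes with a symbol, the lowest ratio belonged to Mup3, a major urinary protein, with levels of 16.94 and 16.54 in control and 14.53 and 13.48 with FR. The probe lies at chr4:61744500-61744548 in mm9, and the second Mup3 probe had a mean of -1.66. Mup genes are a cluster of near-identical copies, so a probe can read several of them. Of 7 Mup genes measured, 5 were called lower, Mup3, Mup5, Mup6, Mup9 and Mup10, with means from -1.63 for Mup6 to -2.74 for Mup3, and the median of the 7 was -1.78.

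The clock repressor Nfil3 came next among the lower genes and is described with the clock. Chka, the choline kinase that opens phosphatidylcholine synthesis, had ratios of -2.84 and -2.29, and its 4 probes ranged from -3.13 to -1.30. Slc16a6, a monocarboxylate transporter that exports ketone bodies, had -2.65 and -2.30, with 13.56 and 13.27 in control and 10.91 and 10.97 with FR. Hao2, a peroxisomal hydroxy acid oxidase, had -2.49 and -2.21, and Car3, an abundant carbonic anhydrase, had -1.78 and -2.65. Ndrg1, a growth arrest and stress gene, had -2.75 and -1.95. Dexi had -2.36 and -2.58.

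The circadian clock is a loop in which ARNTL and CLOCK drive the Per, Cry, Nr1d and PAR-bZIP genes through E-boxes, and the products of those genes act back on the loop. Of 22 clock genes measured, 12 were called higher with FR and 2 lower, and the list's median was 1.26 against 0.00 for all genes. Those not called included Clock, Npas2, Rora, Per3, Cry1, Bhlhe41 and Noct. Over 11 other settings, the single arrays among them, the median ranged from 0.53 to 1.71 and the count of higher genes from 6 to 14.

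Of the activators, Arntl had 10.94 and 10.90 in control and 9.51 and 9.54 with FR, ratios of -1.44 and -1.36. Clock had -1.03 and -0.69 and missed the limit on the second array. Of the repressors, Per1 was at 8.47 and 8.17 in control and 10.08 and 10.53 with FR, ratios of 1.60 and 2.37. Cry2 had 1.21 and 1.46, Nr1d1 had 1.71 and 1.59 and Nr1d2 had 1.68 and 1.84. Per2 and Bhlhe40 had means of 1.48 and 1.19. The last 5 repressors were higher in both FR channels than in both control channels. Ciart, which binds and inhibits the ARNTL and CLOCK pair, was at 7.54 and 6.99 in control and 10.28 and 10.23 with FR, 7.94-fold higher. Dimmer second probes of Per2, Cry2 and Nr1d1 gave means of 0.15, 0.11 and 0.06.

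The clock's output factors bind D-boxes. The activator Dbp was at 10.98 and 11.75 in control and 14.37 and 14.59 with FR, ratios of 3.39 and 2.83 and an 8.64-fold difference. The related activators Tef and Hlf had 2.03 and 2.59, and 1.72 and 1.81, and the dimmest of 4 Tef probes had 0.17. Nfil3, which represses at the same D-boxes, was at 12.51 and 12.29 in control and 9.66 and 9.70 with FR, 6.58-fold lower, and its second probe had a mean of -2.52. Usp2, a clock-controlled ubiquitin protease, had 2.79 and 3.06, and its second probe had a mean of 1.51. The activators of the D-box were thus all called higher and its repressor lower. The livers of both diets were collected in the same window of the morning, and the sources used here do not say whether the last meals of the dams fell at the same hour.

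**Figure D3:**
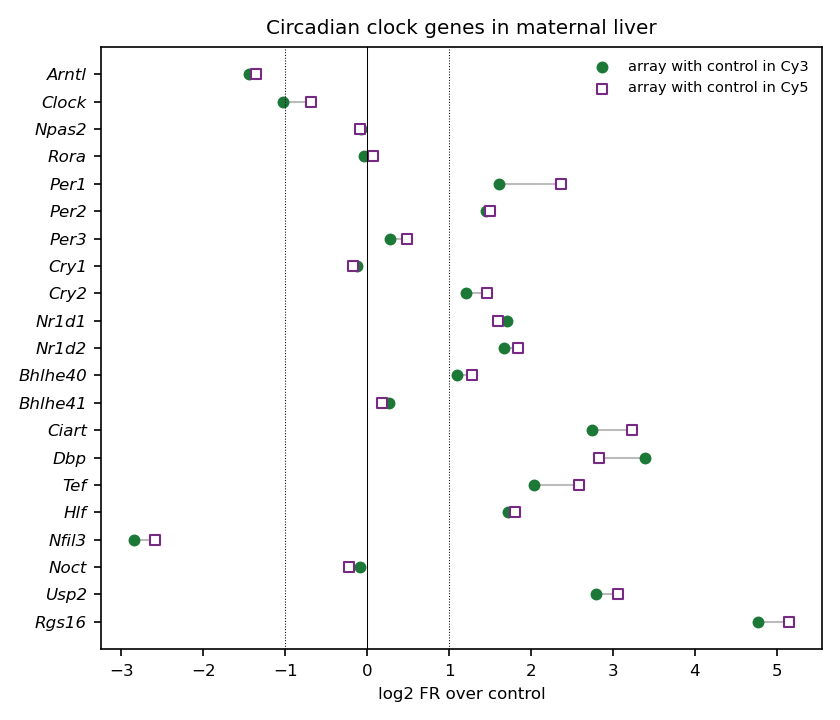
Log2 ratio of FR over control on each maternal array for 21 of the 22 clock genes measured, from the activators at the top to the outputs at the bottom. Green circles are the array with control in Cy3, purple squares the array with control in Cy5, and dotted lines mark 2-fold. Arntl and Nfil3 lie left of -1, and 12 genes from Bhlhe40 to Rgs16 lie right of 1 on both arrays.

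The 250 bases before the start of Ciart and of the first Per1 entry are shown because they hold the clock's own elements in capitals, the E-box CACGTG and the D-box TTATGNAA (RefSeq, GRCm38.p6, 5′ to 3′ on the gene's strand). Ciart lies at chr3:95882229-95882478 on the minus strand and holds 3 E-boxes. Per1 lies at chr11:69098699-69098948 on the plus strand and holds 1 E-box and 1 D-box. The window of the second Per1 entry, chr11:69099902-69100151, holds neither and is not shown. 
Ciart: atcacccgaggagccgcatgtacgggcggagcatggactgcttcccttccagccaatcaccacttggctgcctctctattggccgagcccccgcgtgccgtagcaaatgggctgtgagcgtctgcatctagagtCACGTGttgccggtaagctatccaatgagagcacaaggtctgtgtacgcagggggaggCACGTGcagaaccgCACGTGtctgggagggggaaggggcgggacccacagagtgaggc
Per1: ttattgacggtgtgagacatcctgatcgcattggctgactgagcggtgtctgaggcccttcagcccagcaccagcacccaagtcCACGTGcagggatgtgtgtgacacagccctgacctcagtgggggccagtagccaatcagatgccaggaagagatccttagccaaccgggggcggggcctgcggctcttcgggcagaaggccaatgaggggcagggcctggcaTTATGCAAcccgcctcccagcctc

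Both strands were searched, and the motifs do not overlap here. Of 12 called clock genes with a promoter entry, 3 held an E-box in these 250 bases, as did 26.3% of the 19 clock genes measured with an entry and 8.94% of all 11900 measured genes with an entry. The D-box was in 8.33% of the called clock genes, 15.8% of those measured and 2.88% of all measured. Among all genes called higher the shares were 13.3% and 7.50% of 120, and among all called lower 8.55% and 4.61% of 152. A match is a run of letters and not a measured binding site.

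Glucocorticoids are the adrenal hormones of fasting and stress, and act through a nuclear receptor. Of 20 responsive genes measured, 6 were called higher and 1 lower, with a median of 0.84. Among its called genes, Per1 is also in the clock list, Lpin1 and Angptl4 are in the lipid lists, and Tdo2 is in the amino acid breakdown list. These calls are thus counted in more than 1 list. Cebpd, a transcription factor of the acute response, had 2.13 and 2.14, Angptl4, which inhibits lipoprotein lipase, had 1.89 and 1.94, and Klf9 and Tdo2, which opens tryptophan breakdown, had means of 1.27 and 1.31. Sgk1, a kinase of salt transport, went the other way with -1.39 and -1.02. Fkbp5, which lowers the receptor's affinity for its hormone, had 0.86 and 1.42 and missed the limit on the first array, and Tsc22d3 had 0.03 and 0.61. The metallothioneins Mt1 and Mt2, also metal-responsive, had 1.98 and 0.40, and 2.62 and 0.70. Only 6 of these genes could be read without non-uniform spots, with a median of 0.63 and 1 gene called higher.

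Glucose handling was mixed. Of 32 genes measured, 5 were called higher and 1 lower, with a median of 0.10. Without loess 1 was called higher and none lower. Slc37a4, which moves glucose 6-phosphate into the endoplasmic reticulum for the last step of glucose release, was at 12.98 and 13.63 in control and 14.85 and 15.26 with FR. The glucose transporter Slc2a2 had 1.05 and 1.25, the liver glycogen synthase Gys2 had 1.48 and 1.24, its phosphatase subunit Ppp1r3g had 1.39 and 1.45, and Pfkfb3, which makes the activator of phosphofructokinase, had 1.09 and 1.41. A second Pfkfb3 probe had a mean of 0.02. G6pc, the catalytic partner of Slc37a4, had -0.49 and -0.49, and Pck1 was not analysed here.

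Fat synthesis and fat use each held members on both sides. Of 29 genes of fatty acid and triglyceride synthesis, Lpin1 and Lpin2 were called higher and the desaturases Scd1, Fads1 and Fads2 lower, with a median of -0.37. Scd1, which makes oleate, was at 14.04 and 13.73 in control and 11.81 and 11.35 with FR, 4.94-fold lower. Fads2 and Fads1, neighbours on chromosome 19 that make long polyunsaturated fatty acids, had -2.08 and -1.35, and -1.34 and -1.05. The elongase Elovl5 had -0.95 and -1.25 and the carbohydrate-responsive factor Mlxipl had -1.18 and -0.75, both short of the limit on 1 array. With non-uniform spots left out, 15 of these genes could be read, with 1 called higher, none lower and a median of 0.00. Without loess 2 of the 29 were called higher and 1 lower.

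Of 41 genes of fat oxidation and ketogenesis, 3 were called higher and 1 lower, with a median of 0.00. Without loess none of the 41 passed the limit on each array. The higher members were Cyp4a14, Cyp4a31 with 1.05 and 1.56, and the coactivator Ppargc1a with 1.32 and 1.15, while the mitochondrial carrier Ucp2 had -1.04 and -1.04. The receptor Ppara had 0.14 and -0.03, and the carnitine transferase Cpt1a, which admits fatty acids to mitochondria, had 0.59 and 0.19. Of 11 lipid droplet genes, 2 were called higher and 2 lower, and both directions included a coat protein. Without loess none of the 11 passed the limit on each array. The lipase Pnpla2 was at 11.93 and 12.20 in control and 13.44 and 13.63 with FR, and its inhibitor G0s2 was at 11.56 and 11.35 in control and 9.93 and 9.83 with FR. Plin4 had 1.51 and 1.13 and Plin2, the main coat protein of liver droplets, had -1.05 and -1.38. Angptl8, an insulin-induced partner of Angptl4, had -1.53 and -1.04.

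Cholesterol synthesis had 5 genes called lower and none higher among 27 measured, with a median of -0.37 that ranged from -0.44 to -0.26 over the 11 other settings. The called members, all enzymes, were Idi1 with -1.78 and -1.33, Mvd with -1.49 and -1.38, Hmgcs1 with -1.42 and -1.08, Sc5d with -1.17 and -1.11 and Acat2 with -1.11 and -1.04. A second Sc5d probe had a mean of -2.37, and the lowest of 3 Hmgcs1 probes was the brightest. Without loess none of the 5 passed the limit on each array. Lss, the lanosterol synthase, had 0.43 and 1.05.

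Of 25 bile acid genes, 2 were called higher and 2 lower, and without loess none was called. Abcg5, which sends sterols into bile, had 1.16 and 1.79 and the uptake carrier Slco1a4 had 1.56 and 1.32, whereas the bile salt export pump Abcb11 had -1.18 and -1.30 and Slco1a1 had -1.29 and -1.30. Cyp7a1, the rate-limiting enzyme of bile acid synthesis, had -1.24 and -0.71. Among 50 cytochrome P450 and drug oxidation genes, 5 were called higher, 4 of them Cyp39a1 with 1.75 and 2.43, Cyp3a25 with 1.77 and 1.22, Cyp26b1 with 1.59 and 1.02, and Por, the reductase that feeds electrons to all of these enzymes, with 2.37 and 1.38. The fifth was Fmo5, with 1.33 and 1.24. A second Cyp3a25 probe had a mean of 0.57. Cyp2j5 was lower, with -1.02 and -1.14. Without loess 1 of these 50 genes was called higher and none lower.

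The genes of amino acid supply that were called were higher. Among all genes measured, 1.04% were called higher and 1.16% lower. Of 14 transporters, 3 were called higher and none lower: Slc38a4 with 1.61 and 2.09, the arginine carrier Slc7a2 with 1.73 and 1.96, and Slc38a2, which responds to amino acid shortage, with 1.22 and 2.13. Slc38a2 and Slc38a4 are neighbours on chromosome 15, the lowest of 4 Slc38a2 probes had 0.31, and the second Slc38a4 probe had a mean of 0.75. The median of the transporters was 0.10, and Slc1a4 had -0.91 and -0.74. Over the 11 other settings 1 to 3 transporters were called higher and 0 to 1 lower. Of 40 genes of amino acid breakdown and the urea cycle, Tdo2 alone was called, while Sds had 0.95 and 1.58, Gpt2 had 0.88 and 1.48 and Prodh had 0.92 and 1.34. Of 20 genes of the integrated stress response, Trib3 and Chac1 were called higher, Chac1 with 1.97 and 1.56. Asparagine synthetase, Asns, had 0.99 and 1.14, and Gdf15 had -0.81 and -1.22.

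Hormone signalling genes gave 3 higher of 30 measured, Trib3 among them. Igfbp2, a carrier of insulin-like growth factors that is known to be high in fasting, was at 14.10 and 14.29 in control and 15.46 and 16.16 with FR. The leptin receptor Lepr had 1.32 and 1.58, over 7.69 and 7.42 in control, and its second probe had a mean of 2.14. Igf1 had -0.24 and -0.76 on its brightest probe, and its probes ranged from -1.08 to 1.15, so no single direction can be given. The growth hormone receptor Ghr had 0.36 and -1.94 on its brightest probe, and the means of its 5 probes ran from -1.89 to -0.73. The prolactin receptor Prlr had -0.96 and -0.58, and its 3 probes ran from -1.64 to -0.77. With the median over probes, or with the deposited log ratios, 2 genes of this list were called lower. Igfals had -1.38 and -0.90, Socs2, a growth hormone target, had -0.87 and -0.86, Igfbp1 had 0.55 and -0.09, and Trib1 had 0.42 and 1.08. Among secreted liver hormones the activin chain Inhbe was the only called gene of 15, with -1.39 and -1.25, and Fgf21, a fasting hormone, had -0.30 and -0.37.

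Cytosolic chaperones were called in the lower direction only. Of 22 measured, 4 were called lower and none higher, with a median of -0.52 that ranged from -0.69 to -0.34 over the 11 other settings, and the count of lower genes from 2 to 8. Hsph1, a nucleotide exchange factor of the Hsp70 machine, was at 12.23 and 12.18 in control and 9.86 and 9.80 with FR, 5.19-fold lower. Hsp90aa1, the inducible Hsp90, had -1.68 and -1.40, its partner Chordc1 had -1.56 and -1.47, and the constitutive Hsp70 Hspa8 had -1.02 and -1.16. Dnajb1 had -1.36 and -0.90 and Bag3 had -1.30 and -0.60, short of the limit on the second array. Dimmer second probes of Chordc1, Dnajb1 and Bag3 gave means of -0.81, -0.05 and -0.38. In the endoplasmic reticulum, 32 folding genes gave 1 higher, Herpud1 with 1.38 and 1.03, and 1 lower, Creld2 with -1.41 and -1.30, with a median of -0.13.

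Interferon-stimulated genes were lower with FR. Of 36 measured, 13 were called lower and none higher, their median was -1.01, and the highest mean in the list was -0.09. Over the 11 other settings the median ranged from -1.21 to -0.86 and the count of lower genes from 5 without loess to 19. Interferons signal through STAT proteins to switch on antiviral and antigen-presenting genes. Of the type I targets, the nucleic acid sensor Zbp1 was at 9.87 and 9.45 in control and 7.34 and 7.76 with FR, Isg15, a ubiquitin-like modifier, had -1.80 and -1.09, and Ifi27l2a had -1.77 and -1.88. The RNA-binding Ifit1 and Ifit3, neighbours on chromosome 19, had -1.42 and -1.04, and -1.14 and -1.04, and Oasl2 had -1.02 and -1.04. Of the type II targets, the guanylate-binding Gbp6 was at 9.88 and 9.80 in control and 7.32 and 7.79 with FR, 4.87-fold lower. The chemokines Cxcl9 and Cxcl10, which draw T cells, had -1.72 and -1.71, and -1.69 and -1.72. Gbp3, Irgm1, Igtp and the immunoproteasome subunit Psmb9 had means of -1.37, -1.44, -1.44 and -1.24.

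The windows of Ifit1 and Ifit3 are shown for the interferon-stimulated response element, searched on both strands as TTTC, 2 bases of any kind and TTTC again, and set in capitals. The Ifit1 window is chr19:34640639-34640888 and the Ifit3 window chr19:34583279-34583528, both on the plus strand of GRCm38.p6, from RefSeq. Each holds 2 matches.
Ifit1: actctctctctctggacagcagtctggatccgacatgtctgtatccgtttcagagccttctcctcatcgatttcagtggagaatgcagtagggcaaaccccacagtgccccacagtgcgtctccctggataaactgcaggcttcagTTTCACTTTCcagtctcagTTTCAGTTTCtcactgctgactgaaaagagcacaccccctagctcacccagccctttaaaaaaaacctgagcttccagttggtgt
Ifit3: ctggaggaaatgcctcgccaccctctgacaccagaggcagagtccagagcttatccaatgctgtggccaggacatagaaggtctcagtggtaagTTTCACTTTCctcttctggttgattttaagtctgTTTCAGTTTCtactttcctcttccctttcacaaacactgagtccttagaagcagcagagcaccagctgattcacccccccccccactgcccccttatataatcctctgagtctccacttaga

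The element was in 7 of the 10 called interferon genes with an entry, in 46.2% of the 26 measured and in 3.40% of the 11900 measured genes with an entry. The share was 11.2% among all genes called lower and 1.67% among all called higher.

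The calls among cell cycle genes lay mostly with mitosis. The cell cycle list had 45 genes measured, 12 called lower and 1 higher, and a median of -0.46. Of its 21 mitosis genes 11 were called lower, with a median of -1.11. None of the 19 DNA replication genes was called, and their median was -0.10, with 12 below 0 on both arrays and 6 above. Over the 11 other settings the median of the whole list ranged from -1.04 to -0.41 and the count of lower genes from 5 without loess to 22 with the deposited log ratios. With a normexp offset of 10 the count was 17. Mitosis and replication genes were not counted apart under these settings. Cdc20, which activates the anaphase-promoting complex, was at 9.62 and 9.84 in control and 6.92 and 7.45 with FR, 5.82-fold lower. The proliferation marker Mki67 was at 10.09 and 9.90 in control and 7.74 and 7.64 with FR, and its dimmer second probe had a mean of -1.18. Birc5, a subunit of the chromosomal passenger complex, had -1.95 and -1.73, Stmn1, which destabilises microtubules, had -1.58 and -1.73, and Ccna2, a cyclin of S phase and mitosis, had -1.75 and -1.40. Prc1, Kif20a, Aurka, Cdca3, Plk1 and Cenpe had means between -1.41 and -1.11. The G1 cyclin Ccnd1 had -1.53 and -1.44. Myc, a growth factor-responsive transcription factor, was called higher, with 1.46 and 1.92, and its 3 probes ranged from 0.56 to 1.69.

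The windows of Cdc20 and Mki67 are shown for the 2 elements known from promoters of G2 and M phase genes, CCAAT and TTTGAA (the CHR element), set in capitals. The Cdc20 window is chr4:118437344-118437593 and the Mki67 window chr7:135716380-135716629, both on the minus strand of GRCm38.p6, from RefSeq. Cdc20 holds 2 CCAAT boxes and 1 CHR element, and Mki67 holds 3 and 2. Both strands were searched, and 1 CCAAT box of Mki67 lies on the other strand and reads ATTGG.
Cdc20: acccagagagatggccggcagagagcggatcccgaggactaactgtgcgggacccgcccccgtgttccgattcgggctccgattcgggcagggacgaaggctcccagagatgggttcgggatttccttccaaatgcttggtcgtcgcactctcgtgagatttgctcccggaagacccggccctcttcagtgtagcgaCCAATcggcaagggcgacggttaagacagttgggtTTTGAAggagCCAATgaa
Mki67: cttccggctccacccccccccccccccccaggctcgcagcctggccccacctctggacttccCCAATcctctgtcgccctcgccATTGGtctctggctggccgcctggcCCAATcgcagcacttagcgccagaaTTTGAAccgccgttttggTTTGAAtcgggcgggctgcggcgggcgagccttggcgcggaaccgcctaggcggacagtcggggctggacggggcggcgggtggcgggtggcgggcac

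Both short motifs are common. CCAAT was in 7 of the 8 called cell cycle genes with an entry, in 77.4% of the 31 measured and in 39.7% of all 11900. TTTGAA was in 3 of the 8, in 22.6% of the 31 and in 14.2% of all.

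The plasma protein genes as a whole could not be read in 1 direction. The acute phase, complement and coagulation list of 53 genes had a median of 0.15 on the array with control in Cy3 and -0.60 on the other, and the 13 hepatocyte markers measured had 0.51 and -0.63. Of the 53 genes, 18 were below 0 on both arrays and 13 above. The 12 complement genes had medians of -0.13 and -0.59, with 7 below 0 on both arrays and 2 above. Alb had 1.08 and -1.08, fibrinogen Fgb had 1.18 and -1.53, and Apoa2 had 0.95 and -1.90, so their sign followed the dye of the control pool. The fatty acid carrier Fabp1 had -0.63 and -2.46. Serum amyloid genes, neighbours on chromosome 7, had the same sign on both arrays: Saa2 was at 13.00 and 12.46 in control and 10.17 and 10.22 with FR, Saa3 had -1.91 and -1.43 and Saa1 had -1.82 and -1.17. Saa1 and Saa2 are close copies, so their probes may share signal. The acute phase protein Orm3 was the called gene on the other side, with 1.21 and 1.30.

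Ribosomal protein genes showed a shift below the limit. Of 76 measured none was called, and 55 were above 0 on both arrays and 1 below. Of all 19505 genes measured, 6477 were above 0 on both arrays and 6661 below. The median of the ribosomal protein genes was 0.44, made of 0.67 on the array with control in Cy3 and 0.18 on the other. They are bright, and only 18 could be read without non-uniform spots, with a median of 0.10. The 61 genes of oxidative phosphorylation had a median of 0.17 with none called, and the 34 proteasome genes had -0.01 with Psmd9 called higher.

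**Figure D4:**
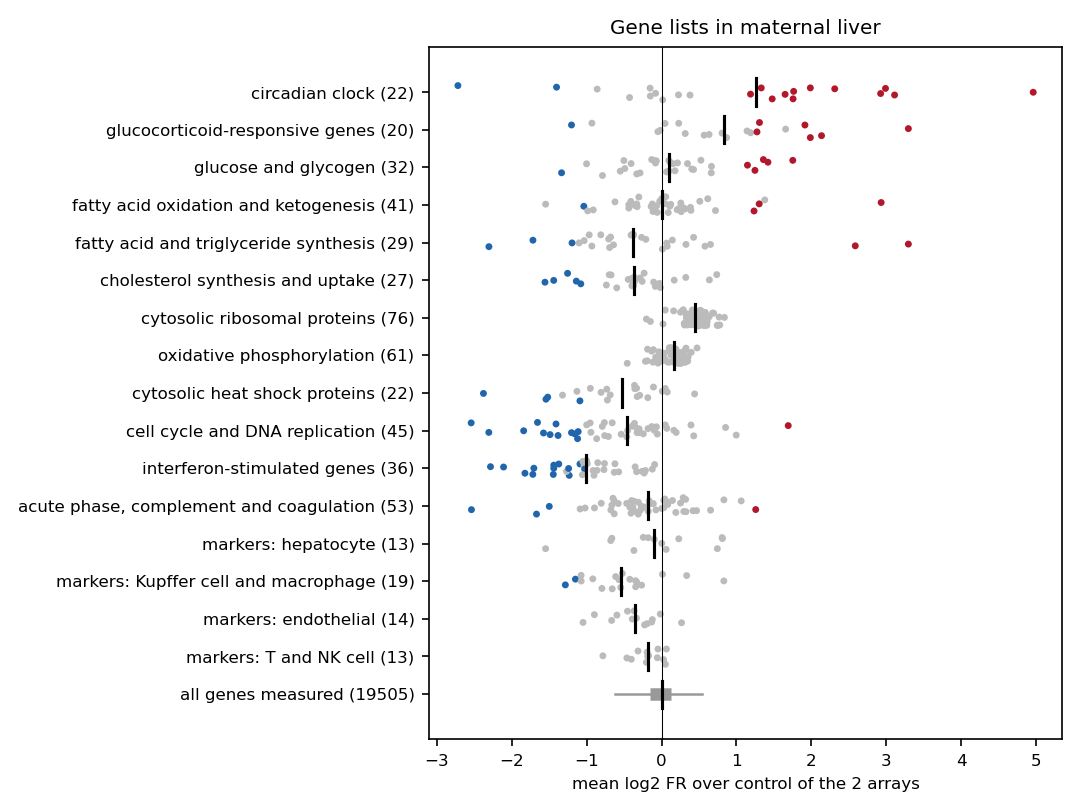
Mean log2 ratio of FR over control of the 2 maternal arrays for the measured members of 16 gene lists, with the number measured in brackets. Each point is a gene, red if called higher, blue if called lower and grey if not called, black bars are list medians, and the grey bar and line at the bottom span the middle 50% and 90% of all genes. The clock and glucocorticoid lists have medians of 1.26 and 0.84, and the interferon list has -1.01 with every member below 0.

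Whole liver holds several cell types, and in pooled RNA fewer cells of a type and less RNA per cell cannot be told apart. Of all 19505 genes measured, 6661 were below 0 on both arrays and 6477 above. Markers of Kupffer cells, the liver's macrophages, were mostly below 0: 16 of 19 were below 0 on both arrays, Clec4f had -1.28 and -1.29, Adgre1 had -1.12 and -1.18, and the summed linear level of the list was lower with FR by a log2 ratio of -0.75 and -0.56. Of 11 stellate and mesenchymal markers, 2 were called lower and 7 were below 0 on both arrays, with a median of -0.34, while the summed level of the list had 0.01 and -0.26. The called markers were the collagens Col3a1, at 11.78 and 11.66 in control and 9.60 and 9.62 with FR, and Col1a1, with -1.45 and -1.47. A dimmer second Col1a1 probe had a mean of -0.53. The 14 endothelial, 13 T and NK cell and 9 B cell markers had medians of -0.35, -0.19 and -0.04, with none called, and the medians of the 19 Kupffer cell markers and the 9 bile duct markers were -0.54 and -0.15. The summed levels had -0.68 and -0.50 for endothelial, -0.22 and -0.30 for T and NK cell and -0.36 and -0.39 for B cell markers. Bile duct markers had -0.67 and -0.66 by their sum, with 7 of 9 below 0 on both arrays. Only 1 of them, the transcription factor Onecut1, was called lower. Krt7 and Sox9 had means of -0.06 and -0.02 on their brightest probes. These markers of several cell types moved beside the interferon, collagen and cell cycle genes above, and their part in those results was not tested.

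The summed level of the 5 erythroid markers measured had log2 ratios of -0.68 and -0.77, while their median was -0.16, none was called, and Klf1 had 0.74 and 1.03. Without non-uniform spots 3 erythroid markers could be read, with a median of 0.02. The summed level of the 4 gall bladder and gut markers measured had 1.21 and 1.03, but their median was 0.05 and only Lgals4 was called, at 8.95 and 8.95 in control and 10.67 and 10.57 with FR. The 9 pancreatic markers had a median of 0.07.

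Some called genes lie near each other, and examples are given here. How often uncalled genes lie as close was not counted. Within 5 genes of a called gene of the same direction lay Cyp4a12b, Cyp4a14 and Cyp4a31 on chromosome 4, Sult1d1 and Sult1e1 on chromosome 5, Abca6 and Map2k6 on chromosome 11, and Tef and Tob2 on chromosome 15, all higher. Lower neighbours were Ly6e, Ly6a and Ly6c2 and also Ccn4, Ndrg1 and St3gal1 on chromosome 15, Igtp and Irgm2 on chromosome 11, and Acnat1 and Acnat2 on chromosome 4. Gene order is that of GRCm38.p6, and probes of similar neighbours, such as the Cyp4a genes, may share signal.

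The maternal ratios were set against those of the fetal livers for 18 genes measured on all 8 arrays, taken from the 10 highest and 10 lowest called genes. The ratio of Rgs16 was 4.96 in the mothers and 0.57 ± 0.11 (SD, n = 3) in the fetal pool pairs, and that of Dbp was 3.11 and 0.71 ± 0.05 (SD, n = 3). Lpin1 had 3.30 and 0.91 ± 0.16 (SD, n = 3), and Trib3 had 3.04 and 0.79 ± 0.10 (SD, n = 3), so these 4 genes were above 0 in every fetal pair too. Abca6 was nearest of the higher genes, with 3.11 and 1.92 ± 0.13 (SD, n = 3). On the lower side Hsph1 had -2.38 in the mothers and -1.31 ± 0.33 (SD, n = 3) in the fetuses. Mup3, Saa2, Slc16a6 and Cdc20, each below -2 in the mothers, had fetal means between 0.07 and 0.22.

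In limma the difference passed an adjusted p of 0.05 for 16 of the 18 genes, with Benjamini-Hochberg adjustment over 18942 genes. The 18 genes were picked by their maternal ratio, which enters the difference, so their count is not independent of the choice. It was 4.39 ± 0.12 (SE) for Rgs16 with an adjusted p of 0.00228, and -2.89 ± 0.14 (SE) for Mup3 with 0.00688. Cyp4a14, at 1.75 ± 0.69 (SE) with 0.229, and Hsph1, at -1.06 ± 0.26 (SE) with 0.0941, did not pass. Over all genes the maternal ratio was above the fetal for 387 (2.04%) and below it for 403 (2.13%). The single maternal pair is taken in this test to vary like the 3 fetal pairs. The fetal pairs are in turn taken as independent and alike, although their pools hold 6 or 3 animals. Since 2 males were taken from each litter, fetal pools of a diet may share litters. The SD over these pairs, the SE and the adjusted p may therefore not reflect the spread between litters. Without the fetal pool of 6, the only fetal pair on the slide of the mothers, or with slide as a block, limma called no gene in either direction. At an unadjusted p under 0.05 it then found 1574 higher and 1618 lower without that pool, and 1289 and 1136 with the block. Either setting leaves 1 residual degree of freedom, as does leaving out one of the fetal pools of 3, with which 16 and 17 of the 18 genes passed. With the block the difference was 4.35 for Rgs16 and -2.92 for Mup3, and without that pool it was 4.42 and -2.87. Only the fetal side could move these values, because the maternal ratio is the same in each setting. All 18 differences kept their sign under both settings, with adjusted p from 0.0874 to 0.379 and from 0.124 to 0.602.

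**Figure D5:**
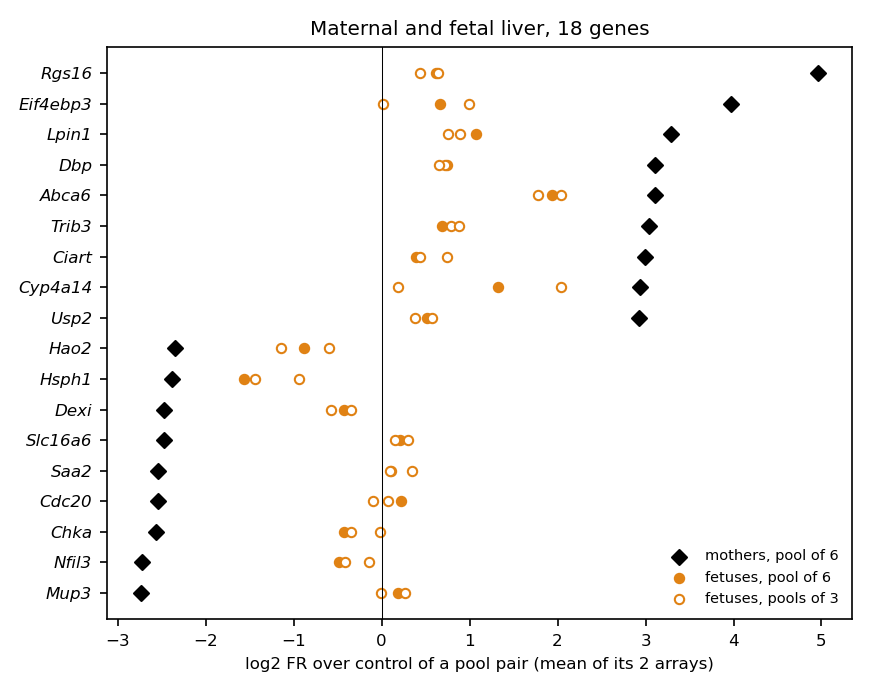
Log2 ratio of FR over control, mean of the 2 arrays of a pool pair, for 18 of the 20 most changed called maternal genes. Black diamonds are the maternal pair, filled orange circles the fetal pair of pools of 6 and open circles the fetal pairs of pools of 3. The maternal value lies outside the range of the 3 fetal values for all 18 genes.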

How the data were processed

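Per the file headers, the deposited scanner files hold the intensity of Cy3 and Cy5 for each spot and its local background, written by the Feature Extraction program. Its version is 9.5.3.1 in the submitters' processing notes. The deposited flags of 0 or 1 mark non-uniform, outlier and background-level spots, and the deposited log10 ratios (Cy5 over Cy3) equalled, within 5e-08, the log10 ratio computed from the processed signal columns. The deposited values were not turned for the dye exchange. An aligner or probe re-mapping is not given in the sources used here.

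From the deposited intensities, log2 ratios were computed with R 4.3.3 and limma 3.58.1, with data.table (version 1.17.8) and jsonlite 2.0.0: normexp with an offset of 50, loess within each array (span 0.3, control spots at weight 0), sign turned to FR over control, and spots of a probe averaged. All spots were kept, those flagged non-uniform or outlying included. The normexp offset shrinks the ratios of weak probes. A probe was kept if well above background for 1 diet on both maternal arrays, and a gene was read from its brightest kept probe. Probes were named through RefSeq: 27015 through an accession, 5016 through a current symbol and 798 through a former one, and 8345 kept the name in the file. The calls need 2-fold in the same direction on both arrays and involve no test.

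The maternal ratios were compared with the fetal ones by limma's lmFit and eBayes on the means of 4 pool pairs (1 maternal, 3 fetal; dye exchange averaged), with Benjamini-Hochberg adjustment. Genes named are the 15 highest and 15 lowest called genes with a symbol, up to 8 genes of each list by size, and Trib1, Lepr, Igf1, Igfbp1, Alb, Afp, Xist, Ddx3y, Pck1, Cyp7a1, Fkbp5 and Tsc22d3. Other named genes, such as Eif2s3y, neighbours and further called list members, were picked with their values in view. A few genes that these rules name are not reported here, and they stayed in every fit and count over lists. The members and gene lists were chosen with earlier results of these data known.

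The description fields of the arrays carry text about rat hippocampus and name the dye-exchanged maternal array as another pool. The titles, which give both arrays the same pool, were followed, and the statement that they are technical repeats rests on that reading. The arrays' number limits the precision.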

Additional observations from a re-analysis of the deposited data

Results flagged for a closer look

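For 16 of the 18 genes compared, the maternal log2 ratio of FR over control differed from the mean of the 3 fetal pool pairs in limma, with adjusted p from 0.00228 to 0.0371. The maternal ratio was above the fetal by 4.39 for Rgs16, 3.41 for Eif4ebp3, 2.46 for Ciart, 2.43 for Usp2, 2.40 for Dbp, 2.39 for Lpin1, 2.25 for Trib3 and 1.19 for Abca6. It lay below the fetal by a difference of -2.89 for Mup3, -2.72 for Saa2, -2.70 for Slc16a6, -2.61 for Cdc20, -2.37 for Nfil3, -2.30 for Chka, -2.02 for Dexi and -1.48 for Hao2. The differences of the 16 genes did not pass the limit in limma with slide as a block or without the fetal pool of 6. With the block they were 4.35 for Rgs16, 2.36 for Dbp, -2.69 for Slc16a6 and -2.92 for Mup3. The genes were picked by their maternal ratio, which is the same in both settings, so only the fetal side could move. The maternal arrays and that fetal pool were hybridised on the same slide, and the other fetal pools on another slide whose scanner files give the median in place of the mean signal. Among the fetal pools slide and pool size cannot be told apart, and the part of the single maternal pool in these differences was not tested. The fetal pools of a diet may also share litters, while limma took them as independent.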

How the results depend on the processing

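Against 203 higher and 227 lower maternal genes, a 1.5-fold limit gave 596 and 758 and a 3-fold limit 58 and 39. Median centring without loess gave 67 and 61, the deposited log ratios 407 and 481, the array with control in Cy3 alone 311 and 379, and the array with control in Cy5 alone 328 and 364. Without non-uniform spots 139 were higher and 146 lower, of 16246 genes that could be read. A normexp offset of 10, scaled arrays, spots without population outliers, no filter on dim probes, a filter in both diets and the median over probes kept both counts within 1.5 times. Of 1184 values of called named genes under these alternatives, 1 changed sign: Rbm3 had -0.0957 without non-uniform spots, where it was read from its dim second probe. A call needs the same sign on both arrays, so the single-array settings could not change a sign. Without loess, 407 of the 430 called genes kept their sign on both arrays. For the difference from the fetuses, against 387 higher and 403 lower genes, leaving out each fetal pool pair in turn gave 0 to 597 higher and 0 to 549 lower, slide as a block 0 and 0, median centring 139 and 93, and only uniform spots 117 and 110 of 10855 genes. The cause was not tested. No paired analysis was possible because the replicate numbers belong to pools and the control and FR pools are already compared within each array. One maternal pool per diet gives no spread between mothers, and weak Cy3 signals and the loess curve limit the ratios of dim and of very bright genes.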
